A study of Drosophila melanogaster with 2 samples.

Results

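Hemocytes collected from the surface of RasV12 salivary glands were compared with hemocytes circulating in larvae of the same genotype. The 40 attached and 126 circulating RasV12 cells were those annotated with the genotype Ras that had at most 10% of their reads on genes of the mitochondrial genome and at least 200 genes with a read. Together they made up 166 of the 434 cells of 3 genotypes that passed this filter, out of 463 wells in the count tables. In this Drosophila melanogaster tumor model, BeadexMS1096-Gal4 drives UAS-RasV12, a constitutively active Ras, in the larval salivary gland, so that the tumor tissue and not the hemocyte is meant to carry the transgene, and hemocytes of both locations were selected by the EaterDsRed reporter in the w1118 background. Attached hemocytes (tumor-associated hemocytes, TAHs) were drawn off the glands with a micromanipulator, amplified with more PCR cycles and read from both ends, with each mate counted, whereas circulating hemocytes were bled, sorted by FACS and read from one end on another sequencer. Location, collection, library protocol and depth therefore cannot be told apart in any of the values below. Each location was a single pool of animals, so no test was made, and differences are described as folds whose 95% intervals cover counting error only. Larval age is not given in the sources used here.

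Hemocytes are the blood cells of the fly. Most are plasmatocytes, macrophage-like cells that engulf dying cells and microbes through receptors of the Nimrod and scavenger receptor families and that deposit much of the basement membrane around other organs. When a tissue is damaged or its basement membrane is disturbed, plasmatocytes settle on it, and the fat body releases antimicrobial peptides under control of the Toll and Imd pathways and Turandot stress peptides under control of JAK/STAT. Crystal cells, which carry prophenoloxidases for melanization, and lamellocytes, which encapsulate large targets, are the other mature types.

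Attached cells held 261607 to 58927908 reads (median 11146487) and circulating cells 19356 to 1009278 (median 582057), a ratio of medians of 19.2. A median of 7443 genes per attached cell and 4573 per circulating cell had a read, and with each cell thinned to 420000 reads (39 attached and 110 circulating cells left) these medians were 5189 and 4521. All 8 plasmatocyte genes of the marker list could be compared, and eater itself, the gene whose enhancer marks the sorted cells, had a read in every cell of both locations (in 97.4% of attached and 100% of circulating cells after thinning). Attached cells also held RNA of other tissues. Salivary gland and fat body genes took 0.341% to 39.4% of the reads of an attached cell (median 3.02%), against at most 0.114% in a circulating cell, and their part in the results was not tested. The salivary gland list stood at 32112 CPM (reads per 1000000 counted reads of the group) in attached and 0.492 CPM in circulating cells, and the fat body list at 24078 and 50.8 CPM. Short lists of muscle, midgut and of trachea and cuticle genes stood at 144, 43.4 and 42.9 CPM in attached cells, against 18.9, 0.0546 and 2.12 CPM in circulating cells. Only 7 attached cells had at most 1% of salivary gland and fat body reads. For some genes and lists, but not for all that differ, ratios are also given in these 7 cells. They were chosen on these 2 tissues alone and held 29.9 CPM of the muscle, 80.3 CPM of the midgut and 34.0 CPM of the trachea and cuticle list. A further 5 wells labelled Ras_C were deposited in the table of the attached cells. The sources do not say what the letter stands for, so these wells entered no group and their values stand beside some results.

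The transgene was not seen as higher Ras85D in circulating cells. Ras85D (chromosome 3R, 9510561 to 9513067, dm6 assembly with annotation r6.37), the endogenous gene whose exons the transgene shares, stood at 691 CPM in attached and 235 CPM in circulating RasV12 cells, with 277 CPM in circulating w1118 cells. Single attached cells ranged from 5.69 to 6639 CPM (median 420) and circulating cells from 7.87 to 710 CPM (median 212), and 11 of 40 attached cells lay above every circulating cell. The attached to circulating ratio was 2.95-fold, a log2 ratio of 1.56, and it was 0.62 in the 7 attached cells with few reads of other tissues. Reads of the transgene and of the endogenous gene were not separated in the counts.

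A gene was called higher or lower when its summed CPM differed at least 2-fold and the group with more had a minimum of 10 CPM, with 25% or more of its cells holding a read. Of 6527 genes that could be called, 857 were higher in attached cells (13.1%) and 1611 were lower (24.7%). The median log2 ratio of all of them was -0.39, which is the level against which the gene lists below should be read. With TMM factors, which move every log2 ratio by 0.41, the split was 1163 higher and 867 lower. Of the 857 higher genes, 343 had less than 1 CPM in circulating cells and 168 had no circulating read at all, while no lower gene lacked reads in attached cells. The 343 genes passed the 10 CPM minimum only through the attached cells, so that they could not have been called lower. The same holds for every other higher gene with under 10 CPM, or a read in under 25% of cells, in the circulating group. Likewise, a lower gene that passed these minimums only through the circulating cells could not have been called higher. Among 2295 genes with at least 50 CPM at both locations, 98 were higher and 233 lower. With the 7 attached cells of low salivary gland and fat body share alone, 448 of the 857 and 1134 of the 1611 genes were called in the same direction.

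**Figure D1:**
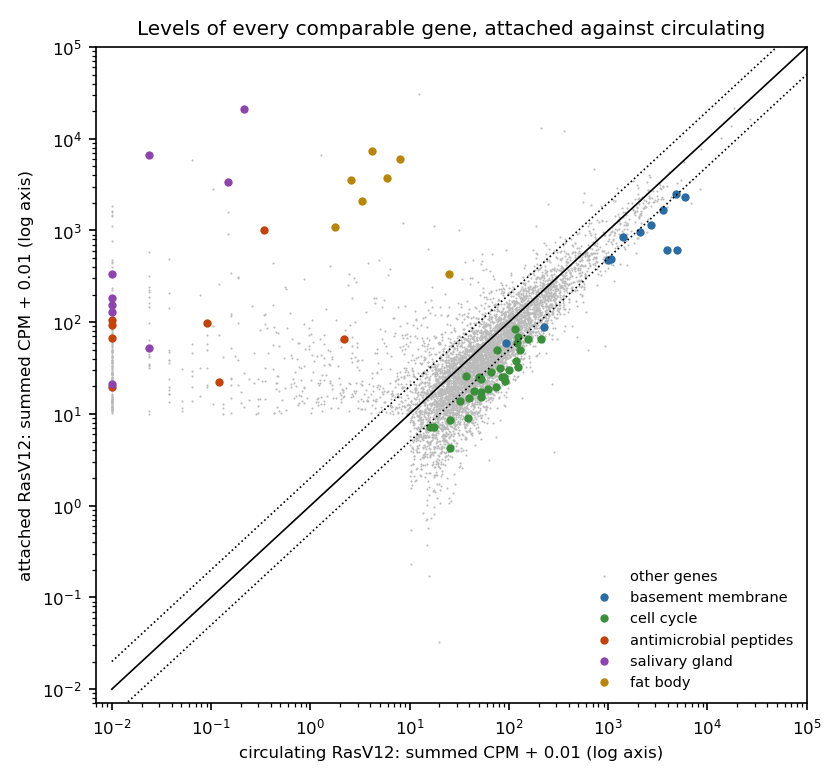
Summed CPM of the 6527 genes that could be called in circulating RasV12 cells (x axis) and attached RasV12 cells (y axis), both on log axes after adding 0.01; the solid line marks equality and the dotted lines a 2-fold difference. Salivary gland, fat body and antimicrobial peptide genes lie far above the line at the left, and basement membrane and cell cycle genes lie below it, with LanA at 614 CPM in attached and 4940 CPM in circulating cells.

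Hemocytes of the second tumor genotype, in which the caspase inhibitor p35 is co-expressed, gave the same comparison on other cells (19 attached and 124 circulating). There 967 of 6540 genes were higher (14.8%) and 2564 lower (39.2%) in attached cells, with a median log2 ratio of -0.64. Of the 857 genes higher in attached RasV12 cells, 472 were also higher in p35RasV12 (55.1%, and 48.8% of the p35RasV12 genes) and 52 were lower. Of the 1611 lower genes, 947 were also lower (58.8%, and 36.9% of the p35RasV12 genes) and 62 were higher. The cells of both genotypes were collected and processed in the same way at each location, so that the shared genes hold the protocol as well as the location.

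The genes that define plasmatocytes were read in all attached cells but at lower levels. None of the 8 was higher and 4 were lower, beside 13.1% and 24.7% of all genes, with a median log2 ratio of -1.09 against -0.39 over all genes. Their summed CPM per cell was 264 at the lowest, 7780 at the median and 35284 at the highest in attached cells, against 4856, 28723 and 43126 CPM in circulating cells. Of the 40 attached cells, 13 lay below every circulating cell and 39 below the circulating median. The first quartile of circulating cells was at 11446 CPM, so that circulating cells were spread too. Hml (chromosome 3L, 13846054 to 13860001), which encodes the clotting protein Hemolectin, was at 25.7, 1181 and 7862 CPM (lowest, median, highest) in attached and at 6.53, 7766 and 14877 CPM in circulating cells, and its summed level was 3.41-fold lower in attached cells. Pxn, the basement membrane peroxidase peroxidasin, had 2291 CPM in attached and 6014 CPM in circulating cells (log2 ratio -1.39), and eater, a phagocytosis receptor for bacteria, had 386 and 990 CPM (-1.36). For NimC1, the plasmatocyte antigen P1, with 1220 and 2164 CPM, and for the GATA factor srp, with 427 and 711 CPM, the difference stayed under 2-fold. So it did for He, the pan-hemocyte antigen Hemese (722 and 1188 CPM). The Toll ligand gene spz stood at 316 and 363 CPM, a log2 ratio of -0.20 that was 0.20 with TMM factors.

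The level of these markers varied with the other-tissue reads among the attached cells. Over the 40 cells, Spearman's rho between the share of salivary gland and fat body reads and the summed plasmatocyte CPM was -0.82, given as a description since both are shares of the same libraries. The same share had a rho of -0.12 with the number of reads and -0.41 with the percent of mitochondrial reads. In the 7 cells with at most 1% of such reads the plasmatocyte list stood at 16773 CPM, its median log2 ratio was -0.49, and 1 of its 8 genes was called lower. The deposited clusters of the attached cells divided along the same values. The 16 RasV12 cells of cluster 0 had a median of 9.74% salivary gland and fat body reads and 4491 CPM of plasmatocyte genes, and the 24 cells of cluster 1 had 2.15% and 13378 CPM.

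**Figure D2:**
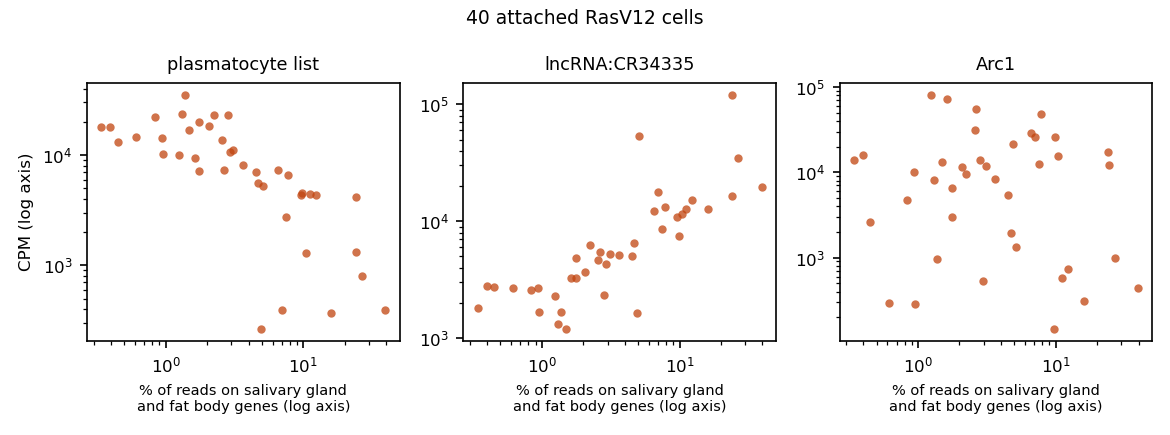
Each point is one of the 40 attached RasV12 cells; the x axis is the percent of its reads on salivary gland and fat body genes (log axis), and the y axis the CPM of the plasmatocyte list, lncRNA:CR34335 and Arc1 (log axes). The plasmatocyte list declines along the axis (rho -0.82), CR34335 increases (0.85), and Arc1 has a rho of -0.08.

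Markers of crystal cells and lamellocytes were compared in the same way. The crystal cell factor gene lz stood at 0.296 CPM in attached and 0.232 CPM in circulating cells. PPO1 and PPO2, the prophenoloxidases of crystal cells, were at 111 and 376 CPM in attached and at 246 and 201 CPM in circulating cells, but a single circulating cell held 85.9% of the PPO1 and 87.9% of the PPO2 reads of its group. Attached cells were uneven too. For the whole crystal cell list the median attached cell held 56.2 CPM and the highest 9392 CPM, beside 511 CPM summed over the group. A PPO1 read was found in 97.5% of attached and 18.3% of circulating cells (82.1% of attached cells after thinning), with a median attached cell at 8.32 CPM, and the Ras_C wells held 1554 to 5469 CPM, above the median attached cell. The lamellocyte antigen gene atilla stood at 5.31 CPM in attached cells, with 37.7% of its reads in a single cell, against a single read in all circulating cells. The lamellocyte list of 5 genes summed to 923 CPM in attached and 428 CPM in circulating cells (median cells at 675 and 355 CPM). Most of it was mys, an integrin subunit gene that other hemocytes express too and the 1 gene of the list called higher.

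Of 17 phagocytosis genes that could be called, 4 were higher and 4 lower in attached cells, beside 13.1% and 24.7% of all genes, and the median log2 ratio was -0.49 beside -0.39. In the 7 attached cells with few reads of other tissues the median of these genes was -0.11. The summed level of the whole list was 1361 to 13030 CPM per cell (median 5304) in attached and 775 to 22932 CPM (median 11732) in circulating cells, and 37 of 40 attached cells lay below the circulating median. Among the lower genes were Sr-CI, a scavenger receptor for bacteria, with 1819 and 3888 CPM in attached and circulating cells (log2 ratio -1.10), eater, as given above, and NimC2 with 36.7 and 165 CPM (-2.17). The NimC2 ratio was set by few circulating cells, since its median cell held 2.06 CPM in attached and 0 CPM in circulating cells.

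The 4 higher genes were NimB3, emp, scb and Itgbn. In circulating cells emp and Itgbn lay under the CPM minimum, and scb under the minimum share of cells with a read. Thus emp, scb and Itgbn passed these minimums only through the attached cells and could be called only higher. NimB3 (chromosome 2L, 13967464 to 13967985), a secreted Nimrod protein, was at 4.46, 63.1 and 836 CPM (lowest, median, highest) in attached and at 0, 7.11 and 95.5 CPM in circulating cells, 8.22-fold higher in attached cells, with 13 of 40 attached cells above every circulating cell. Its ratio was lower in the cells with few salivary gland and fat body reads (log2 0.92 against 3.04). The class B scavenger receptor gene emp had 66.7 CPM in attached and 8.59 CPM in circulating cells (log2 ratio 2.96). The integrin subunit genes scb (alpha-PS3) and Itgbn (beta-nu), which code for a phagocytic integrin pair, had 146 and 50.8 CPM in attached and 16.6 and 8.98 CPM in circulating cells, log2 ratios of 3.13 and 2.50. A read of scb was present in all 40 attached cells (89.7% after thinning) and in 23.8% of circulating cells. drpr, the engulfment receptor Draper, had 510 and 299 CPM, a difference under 2-fold.

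Genes of the basement membrane were lower in attached cells. Of 12 that could be called, 9 were lower and none higher, beside 24.7% and 13.1% of all genes, with a median log2 ratio of -1.12. In p35RasV12 the count of lower genes was also 9 of 12 (median -1.64), beside 39.2% of all genes there. Their summed level per cell was 496 at the lowest, 8453 at the median and 40229 CPM at the highest in attached cells, against 10023, 33832 and 51678 CPM in circulating cells, so that 22 of 40 attached cells lay below every circulating cell. In the 7 attached cells with few reads of other tissues 3 of 12 were called lower and the median was -0.64.

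LanA (FBgn0002526, chromosome 3L, 6203831 to 6218022), the laminin alpha chain, was the only gene for which every attached cell lay below every circulating cell (0.0153% of the genes that could be called). It stood at 6.45, 509 and 2081 CPM (lowest, median, highest) in attached cells and at 2209, 4615 and 14924 CPM in circulating cells. The highest attached and the lowest circulating cell thus lay close to each other. Its summed level was 8.04-fold lower in attached cells, a log2 ratio of -3.01, and -2.41 in the 7 cells with few reads of other tissues and -3.05 in p35RasV12. The Ras_C wells, of the same table as the attached cells, held 33.2 to 3681 CPM (median 190). Ppn (chromosome 3R, 28520665 to 28540324), the matrix protein papilin, had 607 CPM in attached and 3923 CPM in circulating cells (log2 ratio -2.69), with single cells at 8.06 to 2973 CPM and 1.48 to 11856 CPM. The collagen IV chain gene vkg had 1153 and 2678 CPM (-1.22) and the collagen-binding SPARC 1662 and 3575 CPM (-1.11), while Col4a1, the other collagen IV chain, with 2472 and 4817 CPM, was just under 2-fold (-0.96).

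**Figure D3:**
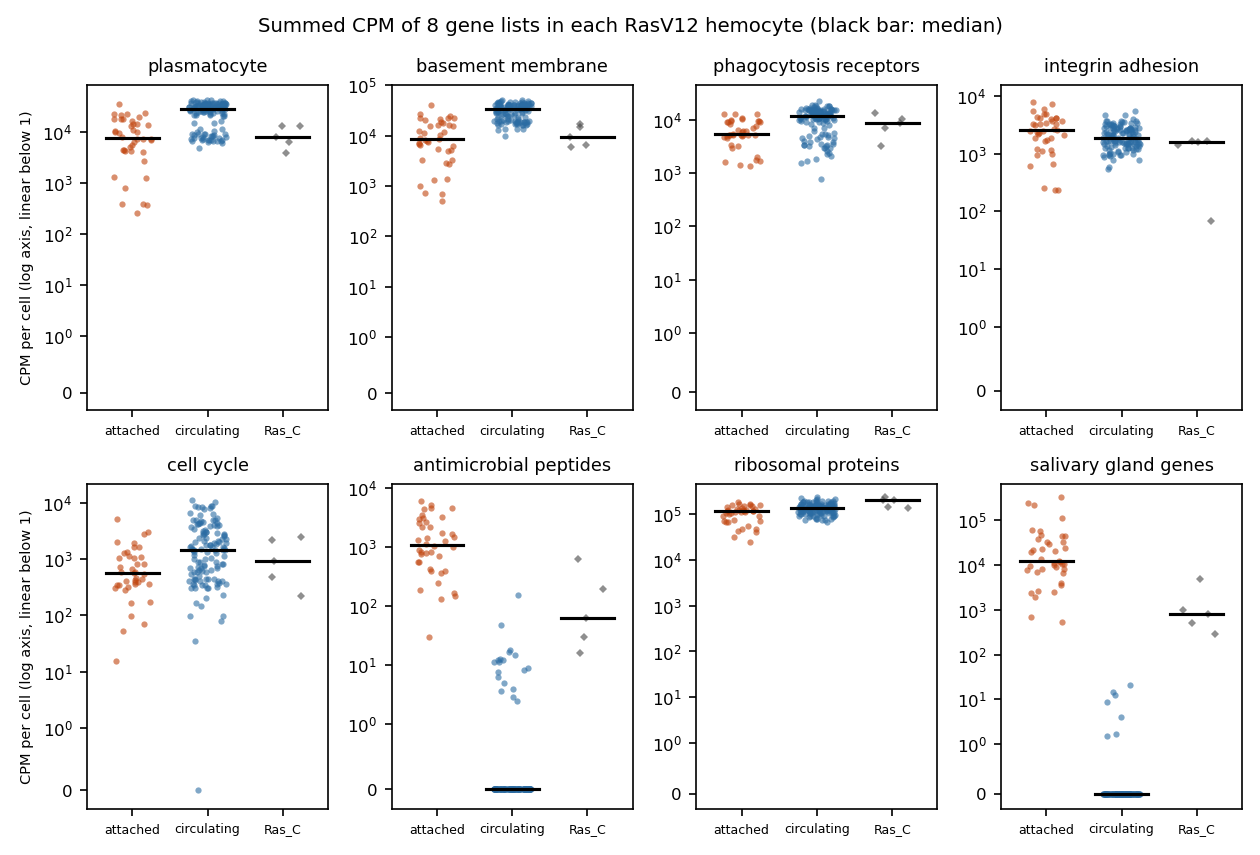
Summed CPM of 8 gene lists in each of 40 attached and 126 circulating RasV12 cells and 5 wells labelled Ras_C (log axes, linear below 1; black bars are medians). The plasmatocyte, basement membrane and cell cycle lists have lower medians in attached cells (7780, 8453 and 556 CPM) than in circulating cells (28723, 33832 and 1476 CPM), and antimicrobial peptide and salivary gland genes lie at 0 in most circulating cells.

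Adhesion to matrix and its cleavage gave higher values in attached RasV12 cells for several genes. Of 17 genes of integrin adhesion, 6 were higher and 1 was lower, beside 13.1% and 24.7% of all genes, with a median log2 ratio of 0.40. Among the 6, scb and Itgbn could be called only higher, as given above. In p35RasV12, by contrast, 2 were higher and 7 lower (median -0.92), beside 14.8% and 39.2% of all genes there (median -0.64). The difference between the genotypes was not tested. mys, the beta-PS integrin shared by most integrin pairs, was at 7.14, 648 and 2791 CPM (lowest, median, highest) in attached and 0, 270 and 1689 CPM in circulating cells, 2.57-fold higher in attached cells. Vinc, the adhesion linker vinculin, had 74.9 and 21.0 CPM (log2 ratio 1.84), parvin, a partner of integrin-linked kinase, 173 and 80.5 CPM (1.10), and Fit1, a kindlin that activates integrins, 210 and 101 CPM (1.06). In p35RasV12 the ratios of these 3 genes were -1.42, -2.90 and -2.42. The talin gene rhea, with 160 and 270 CPM, did not reach 2-fold, and the alpha-PS2 subunit gene if was lower by its sum (8.84 and 36.0 CPM) through a minority of circulating cells, the median circulating cell being at 0 CPM.

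Mmp1 (FBgn0035049, chromosome 2R, 24671294 to 24688184), a matrix metalloprotease that cleaves basement membrane, stood at 5.90, 256 and 3359 CPM (lowest, median, highest) in attached cells and at 0, 7.77 and 626 CPM in circulating cells. Every attached cell and 60.3% of circulating cells (60% after thinning) had a read, and 13 of 40 attached cells lay above every circulating cell. The ratio was 10.3-fold, a log2 ratio of 3.36 (3.32 to 3.41), and 3.53 in the 7 cells with few reads of other tissues. In p35RasV12 it was -0.98, with 32.9 CPM in attached and 64.9 CPM in circulating cells. Of 26 actin and motility genes 1 was higher and 3 were lower (median log2 ratio 0.21), beside 13.1% and 24.7% of all genes. Act5C, the main cytoplasmic actin, had 21517 CPM in attached and 18664 CPM in circulating cells. The fascin gene sn, whose product bundles actin in hemocyte protrusions, was lower at 257 and 779 CPM (log2 ratio -1.60), although its median cell was at 147 CPM in attached and 116 CPM in circulating cells.

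Antimicrobial peptide genes, effectors of humoral immunity, were read in attached cells and had few reads in circulating ones. Of 16 genes, 8 could be called. The whole list summed to 3.00 CPM in circulating cells, so that a gene of it could pass the 10 CPM minimum only through the attached cells, and its direction was fixed by that minimum. The sum per cell was 29.7, 1084 and 6031 CPM (lowest, median, highest) in attached cells and 0, 0 and 151 CPM in circulating cells, and 37 of 40 attached cells lay above every circulating cell. Drs (chromosome 3L, 3369556 to 3369942), the antifungal peptide Drosomycin, supplied 1025 of the 1544 CPM summed over attached cells, and was at 9.20, 683 and 4527 CPM in attached and 0, 0 and 14.6 CPM in circulating cells. Its 24 circulating reads came from 3.17% of the cells, and the log2 ratio was 11.61 (11.04 to 12.25). Mtk, the antifungal peptide Metchnikowin, had 65.5 CPM in attached and 2.17 CPM in circulating cells, and CecC, a cecropin, had 98.3 and 0.0819 CPM, all circulating reads of CecC coming from a single cell.

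DptA, DptB and AttC, a pair of diptericins and an attacin against Gram-negative bacteria, had 106, 67.7 and 93.4 CPM in attached cells and no read in any of the 126 circulating cells. Taken against a floor of 3 reads over the circulating group, which was set for counts of 0, they were 2595-fold, 1654-fold and 2279-fold higher in attached cells. These 3 genes were uneven, with the median attached cell at 15.5, 6.73 and 7.69 CPM and the highest cell of each holding 34.9%, 32.7% and 26.2% of its reads. In the 7 attached cells with few reads of other tissues the peptide genes stood at 304 CPM, and 4 rather than 8 passed the minimum. The rho of their sum with the other-tissue share was 0.48, and the Ras_C wells held 16.1 to 628 CPM (median 62.7). Of the bomanins, short immune-induced peptides, only BomS3 of 12 could be called, at 13.1 CPM in attached cells and with no circulating read.

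Of 26 pathway genes of Toll and Imd, 9 were higher and 3 lower, beside 13.1% and 24.7% of all genes, with a median log2 ratio of 0.23. Of the 9 higher genes, 3 had no circulating read, and PGRP-SD, PGRP-LB and pirk were under 10 CPM in circulating cells. All of these passed the minimum only through the attached cells and could be called only higher. In the 7 attached cells with few reads of other tissues the median of the 26 genes was 0.82. Rel (chromosome 3R, 9044183 to 9047977), the NF-kappaB factor of the Imd pathway, was at 4.94, 589 and 5924 CPM (lowest, median, highest) in attached cells and 0, 146 and 1184 CPM in circulating cells. It was 6.0-fold higher in attached cells, 16 of which lay above every circulating cell, and its log2 ratio was 2.59 in all attached cells and 2.95 in the 7 with few reads of other tissues. In p35RasV12 Rel was lower in attached cells (50.1 CPM in attached and 223 CPM in circulating cells, log2 ratio -2.15). The rho of Rel with the share of salivary gland and fat body reads was -0.55, against 0.19 for Drs. The Toll factor gene dl had 149 and 62.3 CPM (1.26).

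The other higher genes of this list were SPE, nec, PGRP-SB1, PGRP-SA, PGRP-SD, PGRP-LB and pirk, while the receptor genes PGRP-LC (67.0 and 131 CPM) and PGRP-LE (78.6 and 72.3 CPM) and the inhibitor gene cact (121 and 103 CPM) were not called. PGRP-SA, a receptor of the Toll branch, had 89.1 CPM in attached and 14.9 CPM in circulating cells (log2 ratio 2.58), and PGRP-SD, another secreted recognition protein, 57.6 and 0.0819 CPM (9.46). PGRP-LB, an amidase that degrades peptidoglycan, had 39.4 and 0.724 CPM (5.77), and pirk, an inhibitor of Imd signalling, 65.2 and 5.26 CPM (3.63). The lower genes were tub, the Toll adaptor Tube, with 80.6 and 212 CPM (-1.40), and Tab2 and IKKbeta, a kinase adaptor and a kinase of the Imd branch, with ratios of -1.70 and -1.05.

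**Figure D4:**
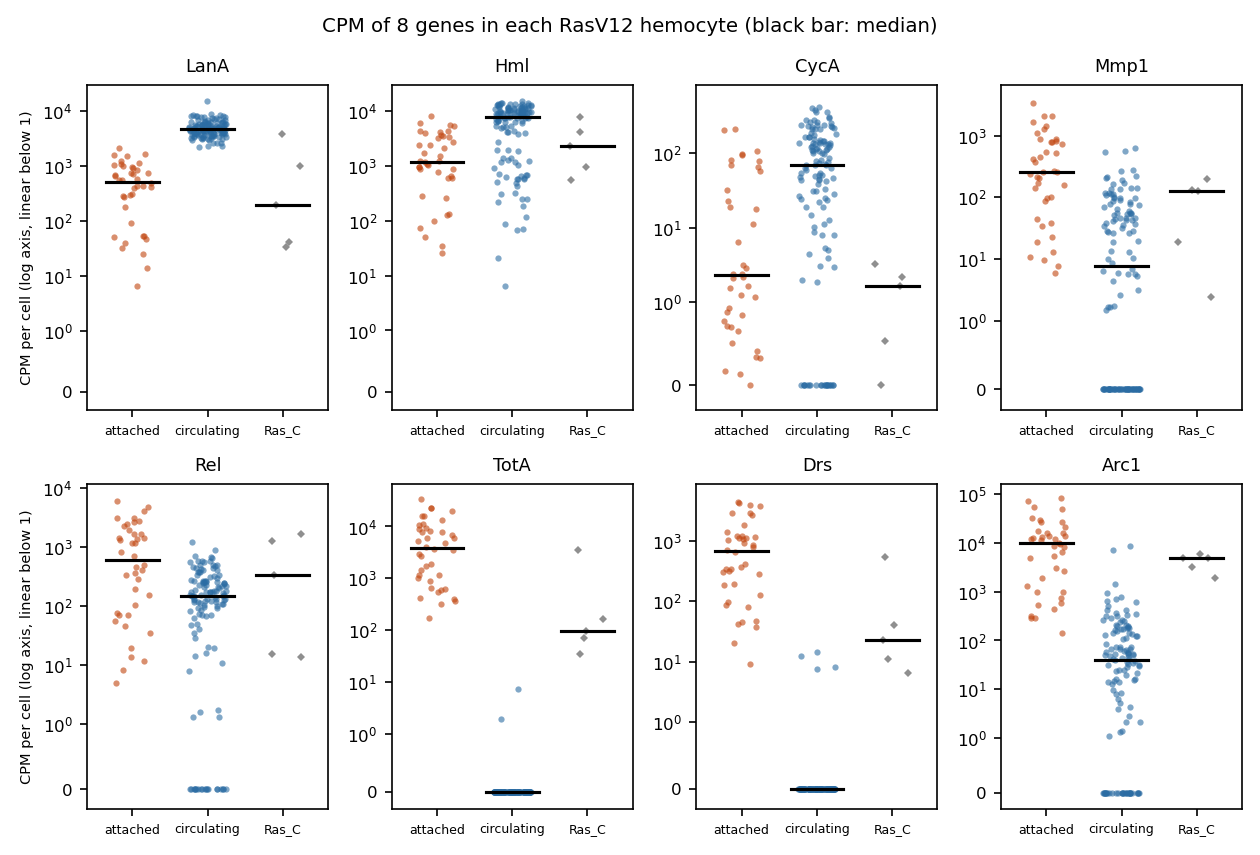
CPM of 8 genes in each of 40 attached and 126 circulating RasV12 cells and 5 wells labelled Ras_C (log axes, linear below 1; black bars are medians). All attached cells lie below all circulating cells for LanA and above them for TotA, whereas the ranges overlap for Hml, CycA, Mmp1, Rel, Drs and Arc1.

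The Turandot gene TotA (FBgn0028396, chromosome 3R, 20871036 to 20871700), a humoral stress peptide, was found at 170, 3849 and 33669 CPM (lowest, median, highest) in attached and at 0, 0 and 7.40 CPM in circulating cells. All 40 attached cells lay above every circulating cell, as they did for 69 genes (1.06%). The circulating group held 4 reads in all, and the log2 ratio was 16.70 with a counting interval of 15.35 to 18.58. In the 7 attached cells with few reads of other tissues TotA was at 407 CPM and its ratio 12.86, its rho with the other-tissue share was 0.73, and the Ras_C wells held 34.8 to 3449 CPM (median 98.2). Of 8 JAK/STAT genes that could be called 3 were higher (TotA, TotC and the cytokine upd3) and 1 was lower (the receptor dome). Over all genes 13.1% were higher and 24.7% lower. The median log2 ratio of the 8 genes was -0.14, and 0.27 with TMM factors. TotA, TotC and upd3 passed the 10 CPM minimum only through the attached cells, so that they could be called only higher. dome had 6.02 CPM in attached and 12.8 CPM in circulating cells, but its median cells were at 0.389 and 0 CPM, so that its ratio by median cells turned to 0.47. upd3 (chromosome X, 18277233 to 18284596) stood at 23.2 CPM in attached and 1.26 CPM in circulating cells, a log2 ratio of 4.20, but its median attached cell held 0.761 CPM and 1 cell held 28.3% of its reads. The transcription factor gene Stat92E (226 and 433 CPM) and the short receptor gene et (156 and 289 CPM) stayed within 2-fold.

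Genes of TNF and JNK signalling were higher in attached RasV12 cells in 4 of 13 cases and lower in 1, with a median log2 ratio of 0.61, against 0 of 11 higher and 7 lower in p35RasV12 (median -1.23). Over all genes the shares were 13.1% higher and 24.7% lower in RasV12, and 14.8% and 39.2% in p35RasV12. In the 7 attached RasV12 cells with few reads of other tissues 6 of 12 were higher and 3 lower, and the median of the 13 genes was 1.23. Besides Mmp1, the higher genes over all attached RasV12 cells were puc, the JNK phosphatase that JNK itself induces, with 236 CPM in attached and 87.2 CPM in circulating cells (1.44), Ets21C, an ETS factor, with 50.3 and 8.34 CPM (2.59), and grnd, the TNF receptor Grindelwald, with 21.2 CPM in attached cells and no circulating read. The directions of grnd and Ets21C were fixed by the CPM minimum, which they could pass only through the attached cells. puc was at 1.10 to 1299 CPM (median 203) in single attached cells and at 0 to 890 CPM (median 65.4) in circulating cells, so that the groups overlapped. In p35RasV12 the ratios of puc and Ets21C were -1.30 and -4.31. The TNF ligand gene egr had 30.6 and 19.5 CPM and the kinase gene msn was lower (21.7 and 75.8 CPM, log2 ratio -1.81). Of 9 apoptosis genes 2 were higher and none lower, beside 13.1% and 24.7% of all genes. Among the higher was the inducer rpr with 17.0 and 2.80 CPM, which could be called only higher, and 49.1% of its attached reads lay in a single cell.

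Ligands and receptor of the PDGF- and VEGF-related pathway, which guides hemocyte migration and survival, differed in opposite directions. Pvr (chromosome 2L, 8220980 to 8239878), the receptor, was at 0.412, 107 and 822 CPM (lowest, median, highest) in attached cells and 0, 548 and 1755 CPM in circulating cells, 3.32-fold lower in attached cells. Its ligand genes Pvf1 and Pvf2 had 44.2 and 79.6 CPM in attached cells and 1.27 and 5.68 CPM in circulating cells, log2 ratios of 5.12 and 3.81. Both ligand genes passed the 10 CPM minimum only through the attached cells, so that they could be called only higher. In p35RasV12 the Pvr ratio was -1.20, and neither ligand was called (1.40 and -1.25). Of the 15 Ras/MAPK and Pvr genes together 3 were higher, these ligands and Ras85D, and 1 was lower, Pvr, beside 13.1% and 24.7% of all genes. The median log2 ratio of the 15 genes was -0.02, and 0.39 with TMM factors.

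Among 11 genes of TGF-beta and BMP signalling only daw, the Activin-type ligand dawdle, was called, at 21.9 CPM in attached cells with no circulating read, at least 535-fold higher. The BMP receptor genes tkv (18.2 and 30.2 CPM) and sax (31.8 and 46.4 CPM) stayed within 2-fold in RasV12. arg, the arginase gene, had 14.0 CPM in attached and 1.35 CPM in circulating cells, with a median attached cell at 6.31 CPM, but in the 7 cells with few reads of other tissues it was at 0.312 CPM and its log2 ratio turned to -2.11. Nos, the nitric oxide synthase gene, had 2.14 CPM in attached cells and 1 circulating read.

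Clotting and chitinase-like genes showed a contrast between one abundant hemocyte gene and several with few or no circulating reads. Of 12 clotting and melanization genes 4 were higher and 2 lower, beside 13.1% and 24.7% of all genes. fon (chromosome 2L, 19383138 to 19386205), the clotting factor fondue, was at 3.22, 373 and 2345 CPM (lowest, median, highest) in attached cells and had no read in circulating cells, 10692-fold higher against the floor of 3 reads. Tg, the transglutaminase that cross-links the clot, had 24.2 and 0.150 CPM, while Hml was lower as given above. Of 6 imaginal disc growth factors, the fly's chitinase-like proteins, Idgf4 (241 CPM in attached and 0.546 CPM in circulating cells, log2 ratio 8.79) and Idgf5 (27.7 CPM and no circulating read) were higher. Idgf6, the most abundant in reads, had 3464 and 6690 CPM (-0.95), and Idgf3 had 994 and 642 CPM (0.63). In contrast, fon, Tg, Idgf4 and Idgf5 passed the 10 CPM minimum only through the attached cells, so that they could be called only higher. fon and Idgf4 were lower in the 7 attached cells with few reads of other tissues, at 33.1 and 9.89 CPM, and had a rho of 0.57 and 0.69 with the other-tissue share. Idgf4 was there under the 10 CPM minimum, and of 4 chitinase-like genes that could be called in these cells none was higher and 1 was lower.

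Arc1 (FBgn0033926, chromosome 2R, 14357927 to 14360297), which encodes a retrotransposon-derived capsid protein that carries RNA between cells, was the gene with the largest ratio among those with at least 50 CPM at both locations. Single attached cells held 145, 9745 and 81064 CPM (lowest, median, highest) and circulating cells 0, 39.3 and 8684 CPM, and 21 of 40 attached cells lay above every circulating cell. Its summed level was 13201 CPM in attached and 212 CPM in circulating cells, a log2 ratio of 5.96 (5.94 to 5.98). In the 7 attached cells with few reads of other tissues the ratio was 5.63, its rho with the other-tissue share was -0.08, and in p35RasV12 the ratio was 6.49. The Ras_C wells held 1859 to 5914 CPM (median 4798), and circulating w1118 cells 52.3 CPM. Its relative Arc2 had 46.9 CPM in attached and 20.0 CPM in circulating cells (1.23).

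The long noncoding RNA CR34335 (chromosome X, 3545750 to 3546110) came next, with 1189, 5080 and 120975 CPM (lowest, median, highest) in attached cells and 14.6, 307 and 3255 CPM in circulating cells, a log2 ratio of 5.05. lncRNA:CR34335 differed from Arc1 in that it followed the share of salivary gland and fat body reads (rho 0.85) and was at 2500 CPM in the 7 cells with at most 1% of them, a ratio of 2.78. The Ras_C wells held 4556 to 11503 CPM. The other 8 genes of this kind, all with at least 50 CPM at both locations, had log2 ratios between 3.36 (Mmp1) and 2.69 (Lsd-1, a perilipin of lipid droplets). They included the tetraspanin gene Tsp42Ed (469 and 53.4 CPM), the small heat shock protein gene CG14207 (555 and 68.4 CPM), the serpin gene Spn55B (370 and 54.6 CPM) and CG6770 (1947 and 249 CPM), with 25 of 40 attached cells above every circulating cell for CG14207.

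Glue protein genes of the salivary gland were among the genes with the largest ratios. Sgs5 (chromosome 3R, 17595362 to 17596112), a glue protein gene, had 6669 CPM in attached cells and 1 read in all circulating cells, a log2 ratio of 18.90 with a counting interval of 16.42 to 24.20, and Sgs7 had 21170 and 0.205 CPM. TotA came second, and the detoxifying glutathione transferase gene GstD2 was among the first 10, with 584 CPM in attached cells and 1 circulating read. Ag5r, CG13947, CG43679, CG7606 and Sgs5bis had 1454 to 1868 CPM in attached cells with no circulating read. Obp99b, an odorant-binding protein gene, had the largest difference between median cells among the 69 genes that separated all cells, at 10109 CPM in attached and 0 CPM in circulating cells, with sums of 30740 and 12.5 CPM, and a rho of 0.71 with the other-tissue share.

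Cell cycle genes were lower in attached cells. Of 30 genes 25 were lower and none higher, beside 24.7% and 13.1% of all genes, with a median log2 ratio of -1.39. In p35RasV12 25 of 30 were lower too (median -2.95), beside 39.2% of all genes there. Their sum per cell was 15.3, 556 and 5280 CPM (lowest, median, highest) in attached cells and 0, 1476 and 11089 CPM in circulating cells. The ranges overlapped almost entirely, but 33 of 40 attached cells lay below the circulating median. Circulating w1118 cells, which lack RasV12, stood at 902 CPM against 908 CPM in attached and 2311 CPM in circulating RasV12 cells. The Ras_C wells held 218 to 2481 CPM, and the 7 attached cells with few reads of other tissues had 23 of 30 genes lower.

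CycA (chromosome 3L, 11826719 to 11833578), the cyclin of S phase and mitotic entry, was at 0, 2.29 and 208 CPM in attached and 0, 68.2 and 413 CPM in circulating cells, 3.38-fold lower in attached cells. Top2, the topoisomerase of chromosome segregation, had 66.2 CPM in attached and 211 CPM in circulating cells (log2 ratio -1.67), Cdk1, the mitotic kinase, 31.4 and 80.9 CPM (-1.37), and Mcm2, a subunit of the replicative helicase, 22.6 and 91.6 CPM (-2.02). The largest difference was that of aurA, the Aurora A kinase, with 4.26 and 25.4 CPM (-2.57). stg, the phosphatase Cdc25 that triggers mitosis, had 32.6 and 124 CPM and CycB 28.6 and 66.4 CPM, both with a median circulating cell at 0 CPM, so that their sums rested on a minority of the cells. PCNA, the replication clamp, had 85.1 and 115 CPM and was not called.

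Among lists of general cell function, those of ribosomal proteins, the proteasome and protein folding had few called genes in RasV12, beside 13.1% higher and 24.7% lower of all genes. No cytosolic ribosomal protein gene of 83 was higher and 2 were lower (median log2 ratio -0.22, and 0.18 with TMM factors), whereas in p35RasV12 43 were lower, beside 39.2% of all genes there. Of 31 proteasome genes 1 was lower, and of 16 genes of protein folding in the endoplasmic reticulum 1 was lower. Of 17 genes of the V-ATPase 2 were higher, of 14 lysosomal genes 1 was higher and 4 were lower, and of 15 autophagy genes 1 was higher and 3 were lower. The lower calls of the lysosomal and autophagy lists lay near the share of all genes. The 13 protein-coding genes of the mitochondrial genome had a median log2 ratio of 0.63 with 2 called higher, such as mt:CoII with 2925 CPM in attached and 1231 CPM in circulating cells. All 13 lay above the median of all genes (-0.39), 7 of 13 were called higher in the 7 attached cells with few reads of other tissues, and 10 of 13 in p35RasV12 (median 1.38). The Ras_C wells stood higher, with a median of 86947 CPM of the list against 14844 CPM summed over attached cells.

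**Figure D5:**
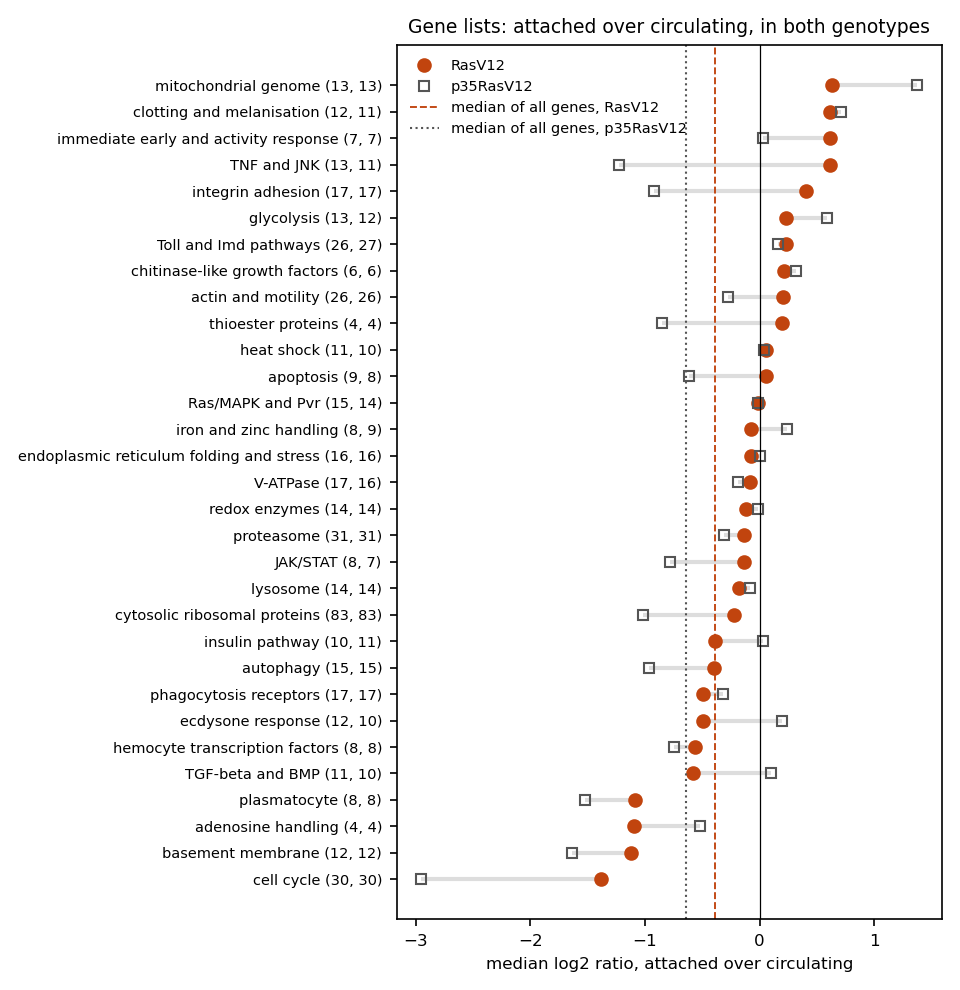
Median log2 ratio (attached over circulating) of the gene lists with at least 4 genes that could be called, in RasV12 (filled circles) and p35RasV12 (open squares); numbers beside each name give the genes that could be called in RasV12 and p35RasV12, and vertical lines mark the median of all genes (-0.39 and -0.64). The cell cycle list is lowest in both, at -1.39 and -2.95, and TNF and JNK genes (0.61 and -1.23) and integrin adhesion genes (0.40 and -0.92) lie on opposite sides of 0 in the 2 genotypes; the salivary gland, fat body and antimicrobial peptide lists lie outside the range shown.

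Single genes of metabolism and stress stood out from these lists. Thor (chromosome 2L, 3478434 to 3479612), the translation inhibitor 4E-BP, was at 7.86, 819 and 4807 CPM (lowest, median, highest) in attached and 0, 0 and 403 CPM in circulating cells, with 27 of 40 attached cells above every circulating cell and a log2 ratio of 5.00. The metallothionein gene MtnA had 1123 and 17.5 CPM (6.0), and the extracellular superoxide dismutase gene Sod3 60.0 and 0.737 CPM (6.35). In the 7 attached cells with few reads of other tissues these 3 ratios were 2.19, 2.85 and 2.04. Ldh, lactate dehydrogenase, was the 1 gene of 13 in glycolysis called, with 50.1 and 0.0819 CPM (9.26, and 8.31 in those 7 cells). The cochaperone gene stv had 52.9 and 0.150 CPM (8.46 and 8.29), whereas Hsp68 had 162 and 30.4 CPM with 47.4% of its attached reads in a single cell. Lower were the catalase gene Cat, with 422 and 1116 CPM (-1.40), and the mitochondrial chaperone gene Hsp60A, with 242 and 532 CPM (-1.14).

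Of 8 hemocyte transcription factors 2 were lower, a share close to the 24.7% of all genes, with a median log2 ratio of -0.56 beside -0.39. One was the GATA cofactor gene ush, with 44.0 CPM in attached and 191 CPM in circulating cells (-2.12), and 17 of 40 attached cells held a lower sum of the list than any circulating cell. The rho of this sum with the other-tissue share was -0.74. In the 7 attached cells with few reads of other tissues the median log2 ratio of the 8 genes was -0.11. There 1 of 7 genes that could be called was lower, and the median cell held 1696 CPM of the list, against 1549 CPM in circulating cells. Adgf-A, the secreted adenosine deaminase, had 111 and 303 CPM (-1.45) and the nucleoside transporter gene Ent1 7.10 and 20.5 CPM (-1.53). Hr4, a nuclear receptor induced by ecdysone, had 12.1 and 92.0 CPM (-2.93), while the ecdysone target br had 519 and 750 CPM.

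The genes with the smallest ratios were of 2 kinds by their values per cell. Rme-8 (chromosome 2R, 9167763 to 9177261), an endocytic trafficking chaperone, was lower throughout, at 0.201, 3.51 and 222 CPM (lowest, median, highest) in attached and 0, 249 and 741 CPM in circulating cells, and the ubiquitin ligase gene HERC2 had a median of 0 CPM in attached and 53.4 CPM in circulating cells. PIG-O, of the GPI anchor pathway, and CG7120 had median cells of 0.326 and 1.29 CPM in attached and 45.5 and 81.0 CPM in circulating cells. In contrast CG34296, with 3.82 CPM in attached and 288 CPM in circulating cells (log2 ratio -6.23, the smallest), had a median circulating cell at 0 CPM and a highest one at 7715 CPM. Dtg (55.4 and 933 CPM), ida, a subunit of the anaphase-promoting complex (5.38 and 52.9 CPM), and mthl10, a Methuselah-like receptor gene (8.58 and 82.4 CPM), had a read in 57.1%, 48.4% and 47.6% of circulating cells. CG34296 and Dtg stood at 418 and 1526 CPM in circulating w1118 cells too, and at 0.272 and 4.43 CPM in circulating p35RasV12 cells.

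The RNAs that dosage compensation uses in male flies differed in a way that sums and medians described unequally. lncRNA:roX1 (chromosome X, 3857230 to 3862697) stood at 49.2 CPM in attached and 629 CPM in circulating cells (log2 ratio -3.67), but 1 attached cell held 69.8% of the attached reads. The median attached cell was at 7.63 CPM and the median circulating cell at 1.79 CPM, with highest cells at 2180 and 3400 CPM. In p35RasV12 roX1 was higher in attached cells (1156 and 376 CPM, log2 ratio 1.62). The numbers of male and female larvae in each pool are not given in the sources used here, and their part in the ratios was not tested.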

How the data were processed

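The authors made Smart-seq2 libraries of single hemocytes, aligned the reads with STAR 2.7.2 to Dm6 r6.37 and counted them per gene with featureCounts 2.0.0; the deposited tables hold raw counts without molecular identifiers, so amplified copies count as reads, and each mate counts in the attached set. Genotypes were taken from the deposited annotation. Each gene's counts were added up within a group and scaled by the group's total (CPM). Log2 ratios had 95% counting intervals, and a gene with 0 reads was set to 3 counts over the group. Genes were called at a 2-fold difference with 10 CPM and a read in 25% of the cells of the higher group. Doublets were not called. The 42 gene lists matched all but 3 of 678 names. Members and lists were chosen with earlier results of these data known. The text names the extremes by ratio (10 each way among genes that reached 50 CPM in the higher group, 10 among genes with 50 CPM at both locations, 10 by separation of cells), extremes and most abundant members of lists, and genes named by the study; further list members were chosen after their values were seen. Alternatives were TMM factors, other totals, weights, filters, thinning to 420000 reads and the omission of cells. Ratios were tested on simulated counts. Python 3.11.15, numpy 2.4.6, pandas 2.3.3, scipy 1.17.1, R 4.3.3 and edgeR 4.0.16 (TMM only) were used. Of the attached wells' columns, 5 were not used. Promoter and protein sequences were not used here.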

Additional observations from a re-analysis of the deposited data

Results flagged for a closer look

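For 7 of the genes named above, each with at least 50 CPM at one or both locations in both genotypes, the location difference ran in opposite directions in the 2 tumor genotypes, each past 2-fold; the difference between genotypes was not tested, since each was a single pool. Rel was higher in attached RasV12 cells (log2 ratio 2.59) and lower in attached p35RasV12 cells (-2.15). The integrin genes Itgbn (2.50 in RasV12 and -3.30 in p35RasV12), parvin (1.10 and -2.90) and Fit1 (1.06 and -2.42) and the JNK phosphatase gene puc (1.44 and -1.30) did the same. By summed reads the fascin gene sn (-1.60 in RasV12 and 1.32 in p35RasV12) and lncRNA:roX1 (-3.67 and 1.62) were lower in attached RasV12 and higher in attached p35RasV12 cells. By median cells neither sn nor roX1 was lower in attached RasV12 cells, as given above. A single attached RasV12 cell held most of the roX1 reads of its group. Vinc, Ets21C, pirk, NimC2, mthl10 and lncRNA:roX2 also ran in opposite directions past 2-fold, but stayed under 50 CPM at both locations in 1 of the genotypes. Of these, NimC2, mthl10 and lncRNA:roX2 also reversed in RasV12 when taken by median cells. A single circulating cell held 49.4% of the RasV12 Itgbn reads of its group.

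The wells labelled Ras_C, which were in no comparison, held salivary gland and fat body RNA above the circulating level. Their median was 817 CPM for the salivary gland list and 1073 CPM for the fat body list, against summed levels of 0.492 and 50.8 CPM in circulating RasV12 cells.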

How the results depend on the processing

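The number of genes higher in attached cells was 415 with a minimum of 50 CPM and 1769 with a minimum of 1 CPM and no minimum share of cells, against 857; the number of lower genes was 867 with TMM factors, 712 with a minimum of 50 CPM and 360 at 4-fold, against 1611. Under every other alternative run these counts stayed within 1.5 times. Of 119 named genes that were called, 106 kept their sign in all 10 alternatives. Taken by median cells (CPM plus 1), the log2 ratio reversed for lncRNA:roX1 and the male list (1.63 each), lncRNA:roX2 (1.77), NimC2 (1.61), stg (1.64), if (1.37), CycB (0.85), mthl10 (0.56), dome (0.47), sn (0.33), ida (0.23), CG34296 (0.20) and Dtg (0.15), and in the 7 attached cells with at most 1% salivary gland and fat body reads arg and with it the list of polarization enzymes reversed to -2.11; the cause was not tested. The cell filter of the study's mapping section left 0 attached cells and was not run. No paired analysis was possible because each location was a single pool. Attached cells had 19.2 times the reads of circulating cells by median, so depth was confounded with location. Genes without circulating reads had none among the 73241893 reads of the circulating group, and the part of depth in this was not tested.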
